A study of Homo sapiens with 30 samples.

Results

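Box C/D small nucleolar RNAs are short RNAs whose gene symbols begin with SNORD. Of the 27630 gene rows in the count tables, 342 carry such a symbol, and the choice used the symbol alone. No count fell in 136 of the 342 rows and 1 to 9 counts fell in 32, which left 174 rows with at least 10 counts summed over 8 libraries. Those 174 are described here and hold 60767 of the 60892 SNORD counts. The scantest row kept had 10 counts and the fullest row left out had 9.

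The RNA libraries are of HEK293FT, a line derived from human embryonic kidney, and form 4 groups with 2 libraries each. All cells were asynchronous and had been transfected with a construct that joins lamin B1, a filament protein of the nuclear lamina, to APEX2, a peroxidase that labels nearby molecules. They are the nuclear fraction, the cytosolic fraction, the RNA recovered by APEX2 labelling without fixation (native lamina), and the same after paraformaldehyde (PFA lamina). The labels do not say whether the 2 libraries of a group came from separate cultures, so p-values measure the spread between these libraries, which may be technical. LMNB1 took 0.304% to 0.520% of the counts of the fraction libraries, 8.60% and 2.96% of the native lamina libraries and 8.89% and 9.49% of the PFA lamina libraries.

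A box C/D RNA folds so that its C and D boxes meet, and binds fibrillarin, NOP56, NOP58 and SNU13. Most members guide fibrillarin to a base-paired site in ribosomal RNA or in the spliceosomal U6 RNA, where it methylates the ribose. A few, among them U22, take part in cutting the ribosomal RNA precursor. In human cells nearly all are cut out of introns of host genes, mature in the nucleus, pass through Cajal bodies and work in the nucleolus. A pair of imprinted loci, on 14q32 and 15q11, carry long tandem arrays of members with mostly no known ribosomal target.

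The 174 rows are 48 to 237 bases long with a median of 76.5. Under 100 bases are 142 of them and 32 are longer. In the hg19 coordinates of the tables, 167 lie within a host gene on the same strand, and these hosts number 91. Bases of 11 rows overlap an exon of another row, where reads of both cannot be told apart because a read was counted for every feature it touched. Of these, SNORD141A and SNORD141B hold the same 4 intervals, part of which lies in exons of EEF1A1, an abundant translation factor, and SNORD62A and SNORD62B also share theirs. A read from unspliced host RNA that crosses an intronic row was counted for the row as well, and its part in the results was not tested.

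Totals per library ran from 2321291 (PFA lamina replicate 2) to 8557777 counts (native lamina replicate 1). The long nuclear RNAs MALAT1, NEAT1 and KCNQ1OT1 exceeded their cytosolic level in the nuclear fraction by 3.96, 3.93 and 5.75 on the log2 scale, and GAPDH and ACTB were lower there, at -2.81 and -2.49. Of 6 markers fixed for HEK293 all had counts, summing to 89.3 to 380 counts scaled to library size (CPM) per library. Of 6 markers of K562, another line of the series, 4 had no count and the sum reached 2.41 to 5.30 CPM. All 6 markers of HCT116, the other line, had counts, 3 passed the filter on low counts, and their sum was 23 to 51.8 CPM. The list held CDX2, VIL1, EPCAM and LGALS4, and also CEACAM5 and KRT20, which stood at 0 or close to it.

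SNORD rows took a larger part of the nuclear libraries than of the other 6. Their share of all counts was 0.215% and 0.226% in the nuclear fraction, 0.104% and 0.107% in the cytosolic fraction, 0.0796% and 0.0800% in native lamina, and 0.0715% and 0.0911% in PFA lamina. Wilson 95% intervals, which cover counting error only, spanned 0.211% to 0.218% for nuclear replicate 1 and 0.0873% to 0.0950% for PFA lamina replicate 2. Both nuclear libraries stood above the other 6, and the intervals of the cytosolic libraries lay above those of all 4 lamina libraries. The last order rested on the overlapping rows. Without those, shares were 0.201% and 0.206% (nuclear), 0.0511% and 0.0411% (cytosolic), 0.0546% and 0.0545% (native lamina), and 0.0498% and 0.0644% (PFA lamina). These are shares within a library, and the amount of RNA per cell cannot be told apart from the number of cells or nuclei recovered.

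**Figure D1:**
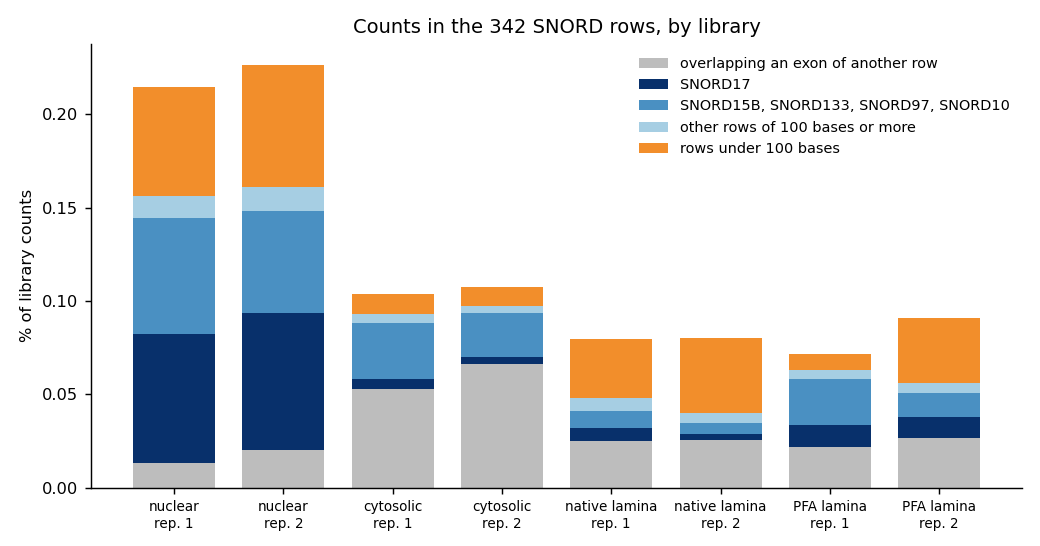
Stacked bars give the percent of each library's counts (y axis) that fell in SNORD rows, split by kind of row, for the 8 libraries (x axis). The nuclear bars reach 0.215% and 0.226%; the grey part, rows overlapping another exon, is largest in the cytosolic libraries, and the orange part, rows under 100 bases, is a large part of the native lamina bars and of PFA lamina replicate 2.

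The rows with the most counts were long. Among rows overlapping no other exon, the 5 with the most counts were SNORD17 with 11801 counts, SNORD15B with 4481, SNORD133 with 4360, SNORD97 with 2879 and SNORD10 with 2379. SNORD17 is at chr20:17943353-17943589 on the minus strand (237 bases, hg19), in an intron of SNX5. SNORD15B is at chr11:75115465-75115610 on the plus strand (146 bases) in RPS3, a ribosomal protein gene. SNORD133 is at chr12:50850354-50850569 (216 bases, LARP4), SNORD97 at chr11:10823014-10823155 (142 bases, EIF4G2) and SNORD10 at chr17:7480129-7480276 (148 bases, EIF4A1). Per kilobase, averaged over the 8 libraries, SNORD17 stood at 1035 normalised CPM, SNORD15B at 627, SNORD133 at 440, SNORD97 at 414, SNORD10 at 321 and SNORD22 at 153. By contrast the median described row had 99.5 counts in all, and only 18 rows had at least 10 counts in every library.

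Each of the 6 comparisons between groups was tested with edgeR's quasi-likelihood test over 16504 genes, with Benjamini-Hochberg adjustment over all of them and a threshold of 0.05. Of the 174 rows, 128 passed the filter on low counts. The other 46 had 10 to 60 counts each and summed to 47.3 and 62.5 normalised CPM in the nucleus, 10.3 and 9.94 in the cytosol, 17.7 and 18.3 in native lamina and 7.58 and 18.8 in PFA lamina. In 45 of the 46 the nuclear mean was above the cytosolic mean. Rows this scant can reach 10 counts mainly through the group where they are high, so this direction is partly built into their choice. No such count was made over equally scant genes.

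SNORD rows were far higher in the nucleus than in the cytosol. Of the 128 tested, 91 were called higher in the nucleus, where 26.1% of all genes were, and 2 were called lower, where 21.2% of all genes were. The median log2 fold change was 2.60 against 0.13 over all genes, and 2.56 with the 4 rows that have a group at 0 counts set to the floor of 3 counts. Under 80 bases 58 of 70 non-overlapping rows were called, from 80 to 99 bases 18 of 27, from 100 to under 150 bases 10 of 18, and from 150 bases 3 of 4. Each fit without a library called fewer SNORD rows and fewer genes over all, while the median stayed between 2.34 and 2.72.

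SNORD17, a guide for 28S ribosomal RNA, measured 703 and 847 normalised CPM in the nucleus, 52.7 and 45.0 in the cytosol, 63.5 and 26.8 in native lamina and 128 and 96.0 in PFA lamina. Its nuclear values stood apart from the other 6, with a nuclear to cytosolic log2 fold change of 3.99 (SE 0.41, adjusted p = 0.000347). SNORD15B, a copy of the U15 guide, measured 286 and 293 in the nucleus against 39.8 and 23.9 in the cytosol (3.17, SE 0.58, adjusted p = 0.00147). SNORD10, which guides U6 RNA, measured 108 and 131 against 37.8 and 17.3 (2.1, SE 0.49, adjusted p = 0.00429), a call lost without cytosolic replicate 2.

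SNORD22, or U22, is the only row of 13 on a list of RNAs for ribosomal RNA processing that is in the tables used here, and the listed rows of U3, U8, U13 and U14 were not analysed here. Further rows with a U3 or U13 symbol had few counts: 8 of the U3 family summed to 16, and those of U13 with at least 10 counts, named after their values were seen, were SNORD13C with 18, SNORD13E with 17 and SNORD13F with 28. SNORD22 lies at chr11:62620382-62620507 in SNHG1 and measured 35.2 and 36.8 normalised CPM in the nucleus, 11.2 and 10.6 in the cytosol, 15.4 and 12.2 in native lamina, and 25.1 and 7.73 in PFA lamina. Both nuclear values were above all others. The nuclear to cytosolic difference was 1.72 (SE 0.43, adjusted p = 0.00627) and lost its call without cytosolic replicate 2. Differences from the nuclear fraction did not pass for native lamina (-1.38) or PFA lamina (-1.08).

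Among called rows with 20 or more counts in both nuclear libraries, the largest nuclear to cytosolic differences were those of the short rows SNORD78, SNORD19 and SNORD59A. SNORD78, in GAS5, had 68 nuclear and 1 cytosolic counts, a ratio of 67.8 after scaling with a 95% counting interval of 11.8 to 2717. SNORD19, in GNL3, had 64 and 2 counts (31.9, 8.48 to 269). SNORD59A, in ATP5B, had 51 and 2 counts (25.4, 6.69 to 216). SNORD1A, in SNHG16, had 48 counts in the nucleus and none in the cytosol, at least 7.73-fold higher against a floor of 3 counts per library. It was chosen after its values were seen.

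Some abundant members showed no call between the fractions. SNORD133 measured 121 and 111 normalised CPM in the nucleus and 141 and 188 in the cytosol, a difference of -0.50 (SE 0.39, adjusted p = 0.296). SNORD97, tied to methylation of a transfer RNA as well, measured 111 and 93.3 against 71.3 and 59.4 (0.65, SE 0.61, adjusted p = 0.398). SNORD94, a guide for U6 RNA chosen after its values were seen, had 101 nuclear and 167 cytosolic counts (-0.71, adjusted p = 0.213). Both calls in the cytosolic direction were the identical rows SNORD141A and SNORD141B, at 36.0 and 80.1 in the nucleus and 238 and 388 in the cytosol (-2.43, SE 0.38, adjusted p = 0.000823). EEF1A1, whose exon they share, was lower in the nucleus as well, at -1.98 (adjusted p = 0.0011). Among rows overlapping no other exon, 89 of 119 were called higher in the nucleus and 0 lower by edgeR.

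**Figure D2:**
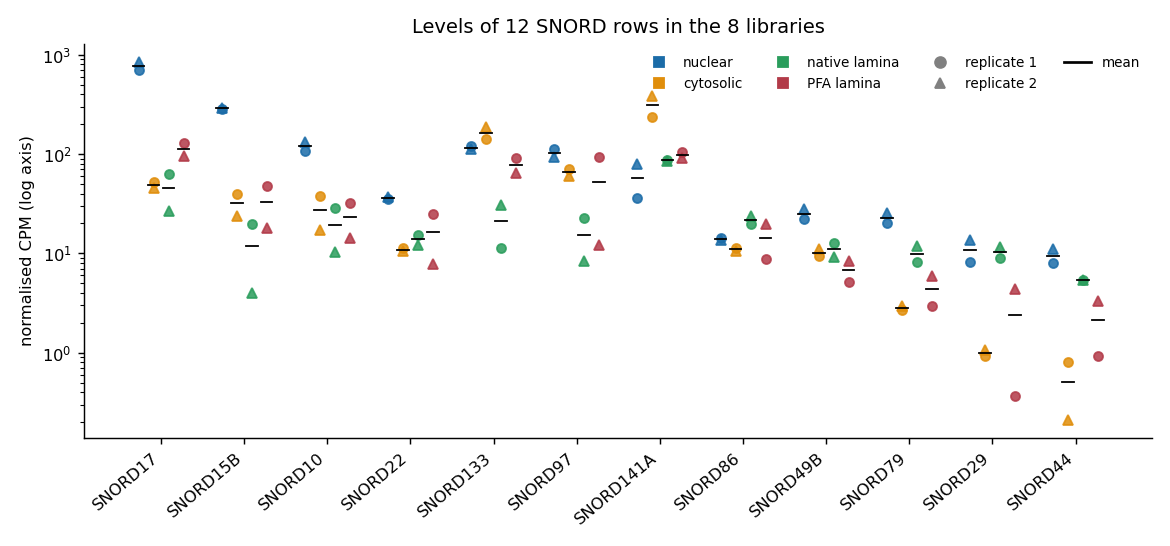
Normalised CPM (log y axis) of 12 SNORD rows (x axis) in the 8 libraries; colours are groups, circles replicate 1, triangles replicate 2 and black bars group means. SNORD17, SNORD15B and SNORD10 are highest in both nuclear libraries, SNORD133 is lowest in both native lamina libraries, and SNORD29 is as high in native lamina (9.04 and 11.5) as in the nucleus (8.09 and 13.7).

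Host RNAs did not share the nuclear bias of the SNORD rows inside them. All 91 hosts were tested, and between nucleus and cytosol 17 were called higher in the nucleus (26.1% of all genes were) and 36 lower (21.2% were), with a median log2 fold change of -0.55 against 0.13 over all genes. Of 117 tested SNORD rows that have a tested host and overlap no exon, 115 had the larger value of the pair and 70 had the opposite sign. Ribosomal protein genes, 16 of the hosts, had 1 called higher and 12 lower, with a median of -1.70. Of the 37 tested SNORD rows that they or their exons hold, 25 were called higher and 0 lower, with a median of 2.44.

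GAS5 and SNHG1 are spliced RNAs without a long reading frame whose introns are packed with SNORD rows. All 10 rows in GAS5 were called higher in the nucleus, with log2 fold changes from 1.98 to 5.74, while GAS5 itself changed by 1.18 (SE 0.32, adjusted p = 0.00907). The 10 rows summed to 113 and 130 normalised CPM in the nucleus, 14.3 and 21.4 in the cytosol, 46.3 and 60.9 in native lamina and 13.7 and 40.1 in PFA lamina. All 8 rows in SNHG1 were called higher as well, from 1.72 to 4.08, while SNHG1 did not pass (0.46, SE 0.31, adjusted p = 0.233). Their sums were 97.4 and 122, 18.7 and 20.9, 54.2 and 62.6, and 29.4 and 38.6 in the same order. In both hosts the nuclear sums were highest, native lamina came next and its libraries did not overlap the cytosolic ones.

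**Figure D3:**
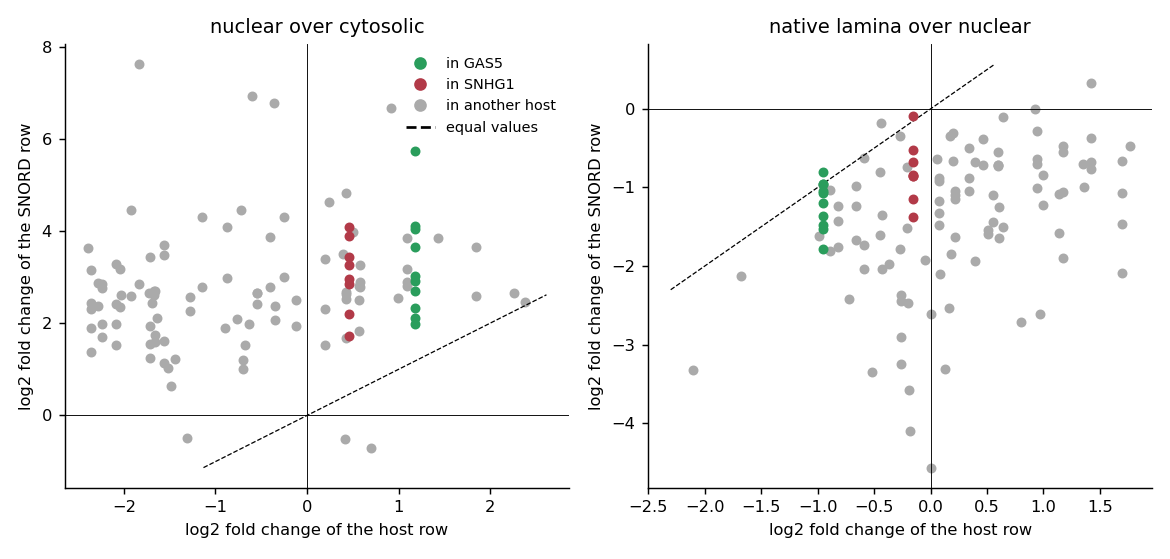
Each point is a tested SNORD row overlapping no other exon, with the log2 fold change of its host row on the x axis and its own on the y axis, nuclear over cytosolic (left) and native lamina over nuclear (right). On the left 115 of 117 points lie above the dashed line of equal values; on the right 113 lie below it. Values over 6 on the left belong to rows with 0 cytosolic counts and are no bounds.

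Genes for the box C/D proteins had calls in both directions between the fractions, as did all genes (26.1% higher in the nucleus, 21.2% lower). Of the 4 core proteins NOP58 was higher in the nucleus than in the cytosol (1.09, adjusted p = 0.0187), and FBL, the methyltransferase fibrillarin (-2.35, adjusted p = 0.000801), and SNU13, the first protein to bind (-2.20, adjusted p = 0.000690), were lower. NOP56 did not pass (0.58, adjusted p = 0.121). Of 13 assembly and transport genes in the table, from a list of 14, 2 were higher and 6 lower. RPAP3, a part of the R2TP chaperone complex (1.29), and TGS1, which methylates caps (0.87), rose, and the helicases RUVBL1 (-1.36) and RUVBL2 (-1.58) of the same chaperone complex, and NOLC1, a nucleolar and Cajal body protein (-1.38), were among those that fell. In native lamina against nuclear none of the 4 core genes passed by edgeR, FBL coming nearest at 0.85 (adjusted p = 0.134). There 2 of the 13 assembly genes, RUVBL2 and NOLC1, were higher (3.87% of all genes were). In PFA lamina 2 of the 4 core genes, FBL and SNU13, were higher than in the nuclear fraction, by 1.26 each. Of the 13 assembly genes 3 were higher there (9.63% of all genes were) and 1 lower (7.81% were).

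Native lamina had less of SNORD15B, SNORD17 and other long members than the nuclear fraction. Against nuclear, 0 of 128 rows were called higher (3.87% of all genes were) and 8 lower (3.44% of all genes were), by edgeR, and 39 had an unadjusted p under 0.05. The median log2 fold change was -1.10 against -0.07 over all genes. Calling was uneven in length, with 2 of 70 rows under 80 bases, 0 of 27 from 80 to 99, 4 of 18 from 100 to under 150 and 2 of 4 from 150 bases, and medians of -0.97, -1.23, -1.71 and -2.50. Fits without a library called fewer rows, and fewer genes over all. When only these 4 libraries were fitted 46 rows were called lower, where 2355 of 16097 genes were. The median kept its sign throughout, from -1.33 to -0.80. The long nuclear RNAs MALAT1, NEAT1 and KCNQ1OT1 differed by -0.63, -1.89 and -2.69 in the same comparison, and none passed by edgeR (adjusted p = 0.538, 0.103 and 0.0700).

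SNORD15B fell furthest among rows with ample counts, to 19.96 and 3.98 normalised CPM in native lamina from 286 and 293 in the nucleus (-4.57, SE 0.62, adjusted p = 0.00397). SNORD17 fell to 63.5 and 26.8 (-4.10, SE 0.42, adjusted p = 0.000646). Each kept its call without any 1 of the 4 libraries. SNORD97, at 22.5 and 8.40, changed by -2.71 (SE 0.65, adjusted p = 0.0311), a call lost without each of the 4 libraries and with DESeq2. SNORD10 fell to 28.4 and 10.3 (-2.61, adjusted p = 0.0142), lost without either nuclear library or native lamina replicate 2. SNORD133 fell to 11.3 and 30.9 (-2.47, adjusted p = 0.00994), lost without either nuclear library. In all 5 rows the native lamina values lay below both nuclear values, as they did in 135 of the 163 non-overlapping described rows. The other 3 calls, named after their values were seen, were SNORD15A (-2.62), SNORD87 (-3.58, on 4 and 39 counts) and SNORD49A (-1.61).

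Hosts of these long rows did not move with them. SNX5, the host of SNORD17, differed by -0.18 between native lamina and nuclear (adjusted p = 0.718), RPS3, the host of SNORD15A and SNORD15B, by 0.01 (adjusted p = 0.991), LARP4 by -0.20, EIF4A1 by 0.97 and EIF4G2 by 0.80, and none of these passed.

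Short rows made up more of the SNORD counts in native lamina than in either fraction. This share does not depend on how libraries are scaled to each other. Among 163 non-overlapping described rows, those under 100 bases held 28.8% and 31.6% of the counts in the nucleus, 21.3% and 24.7% in the cytosol, 58.1% and 73.6% in native lamina, and 16.6% and 54.0% in PFA lamina. Both native lamina libraries were above all others. PFA lamina replicate 1 was the lowest of the 8, and replicate 2 lay between the nuclear and the native lamina libraries. The 5 rows of most counts weighed heavily, with 62.2% to 69.1% of the counts in the fractions, 30.0% and 16.8% in native lamina and 72.9% and 37.5% in PFA lamina. Without these 5 the shares were 83.1% and 83.7% (nuclear), 68.9% and 73.1% (cytosolic), 83.1% and 88.5% (native lamina), and 61.1% and 86.4% (PFA lamina), so that native lamina replicate 1 no longer stood above either nuclear library.

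**Figure D4:**
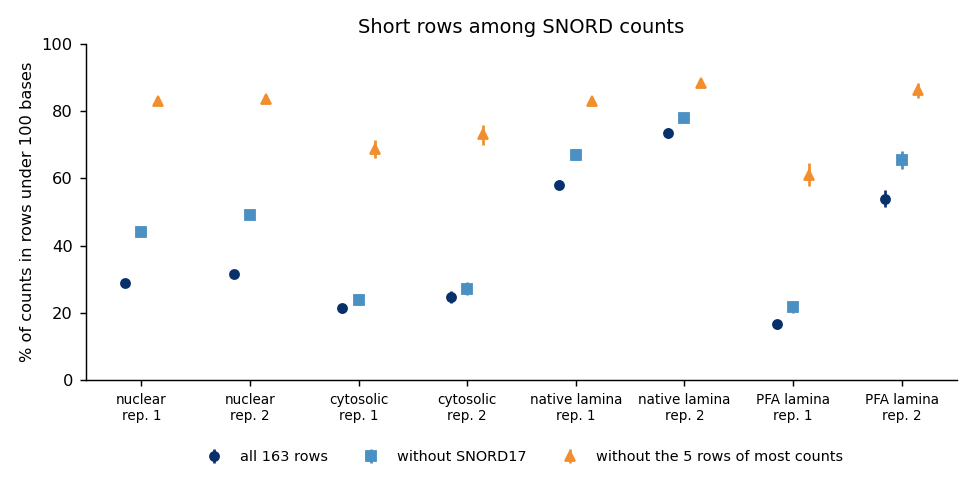
Percent of counts in non-overlapping described SNORD rows that fell in rows under 100 bases (y axis) in each library (x axis), with Wilson 95% intervals, for all 163 rows, without SNORD17 and without the 5 rows of most counts. With all rows native lamina is at 58.1% and 73.6% and the nuclear fraction at 28.8% and 31.6%; PFA lamina replicates are at 16.6% and 54.0%.

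Summed levels show the same. The 133 rows under 100 bases summed to 669 ± 115 normalised CPM in the nucleus (SD, n = 2), 115 ± 13.4 in the cytosol, 318 ± 50.7 in native lamina and 192 ± 146 in PFA lamina. Native lamina thus held 47.5% of the nuclear mean, from 37.6% to 60.2% over pairs of libraries, and the cytosol 17.2%. The 30 rows of 100 bases or more summed to 1535 ± 123, 385 ± 7.58, 165 ± 54.1 and 350 ± 140 in the same order, which put native lamina at 10.7% of nuclear (7.80% to 14.02%) and the cytosol at 25.1%. The 25 long rows left without the 5 of most counts were at 39.1% of nuclear in native lamina (31.6% to 48.2%) and 35.3% in the cytosol. Their native lamina range overlapped that of the short rows.

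**Figure D5:**
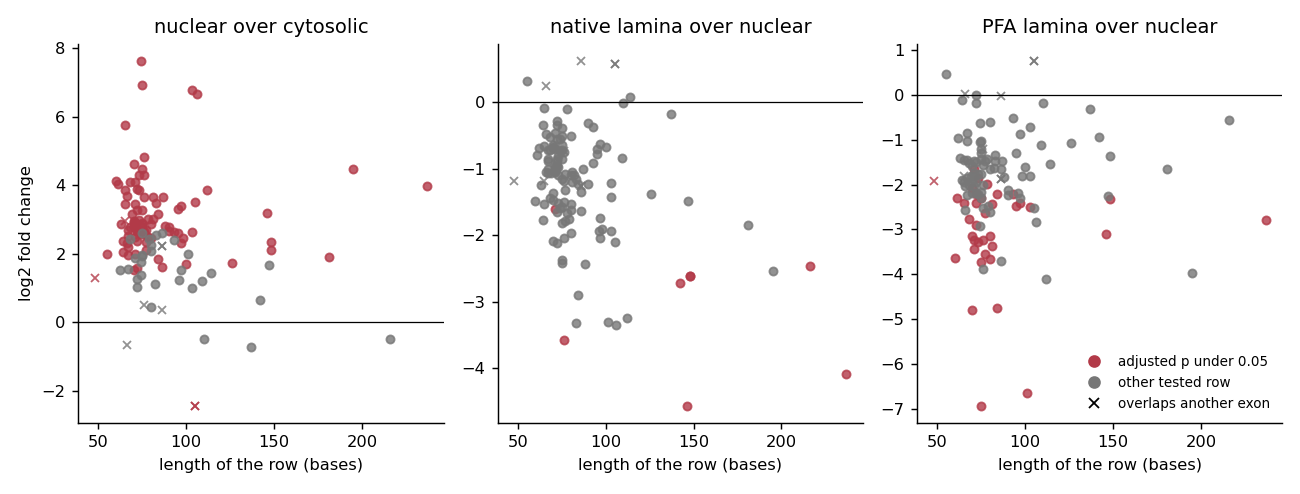
Log2 fold change (y axis) against row length in bases (x axis) for the 128 tested SNORD rows in 3 comparisons; red marks an adjusted p under 0.05 and crosses mark rows overlapping another exon. In native lamina over nuclear 6 of the 8 called rows are 100 bases or longer; in PFA lamina over nuclear most of the 37 called rows are short. Values beyond 6 or -6 belong to rows with 0 counts in 1 group and are no bounds.

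Against the cytosolic fraction native lamina held more of many short rows. Of 128 rows 15 were called higher (6.99% of all genes were) and 4 lower (6.77% were), with a median of 1.33 against 0.10 over all genes. Of the 15, 13 were under 80 bases, out of 70 non-overlapping rows of that length, and 2 were from 80 to 99 bases, out of 27. Fits without a library called fewer rows higher, and fewer genes over all, while the median remained between 0.98 and 1.59 in every alternative.

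SNORD29, in SNHG1, measured 9.04 and 11.5 normalised CPM in native lamina, 0.936 and 1.06 in the cytosol, 8.09 and 13.7 in the nucleus, and 0.370 and 4.41 in PFA lamina. Native lamina and nuclear values overlapped and all 4 stood above the other 4. The native lamina to cytosolic difference was 3.35 (SE 0.77, adjusted p = 0.0159). SNORD31, in the same host, measured 2.91 and 5.16 against 0.401 and 0.211 (3.55, SE 0.93, adjusted p = 0.0256). SNORD44, in GAS5, measured 5.41 and 5.45 against 0.802 and 0.211 (3.25, SE 0.75, adjusted p = 0.0159). Calls of all 3 were lost without either cytosolic library or without native lamina replicate 2, with log2 fold changes of 2.72 to 4.55. GAS5 held 4 and SNHG1 3 of the 15 called rows, while neither host passed (0.23 and 0.30).

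Rows lower in native lamina than in the cytosol were long or overlapped EEF1A1. SNORD133 stood at 11.3 and 30.9 normalised CPM against 141 and 188 (-2.97, SE 0.42, adjusted p = 0.00427) and kept its call in each alternative run. SNORD97 was at 22.5 and 8.40 against 71.3 and 59.4 (-2.07, adjusted p = 0.0482), lost in 5 alternatives, namely DESeq2, total counts and the fits without either cytosolic library or native lamina replicate 2. SNORD141A and SNORD141B were at 87.4 and 85.8 against 238 and 388 (-1.85, adjusted p = 0.0100), lost without cytosolic replicate 2 or native lamina replicate 2, and EEF1A1 was lower by the same test (-1.57, adjusted p = 0.0123).

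PFA lamina was lower than nuclear in each length class of SNORD rows by median, but its 2 libraries differed. Against nuclear, 37 of 128 rows were called lower (7.81% of all genes were) and 0 higher by edgeR (9.63% of all genes were), with 75 at an unadjusted p under 0.05 and a median of -1.90 against -0.04 over all genes. Called rows were 22 of 70 under 80 bases, 9 of 27 from 80 to 99, 4 of 18 from 100 to under 150 and 1 of 4 from 150 bases. The median was -1.31 without PFA lamina replicate 1 and -3.21 without PFA lamina replicate 2. Fewer rows were called lower without replicate 1 and more without replicate 2, and so were genes over all. Calls also fell without either nuclear library, as they did over all genes. They were 7 when only these 4 libraries were fitted, where 249 of 16205 genes were lower. With total counts they were 21, where 511 of 16504 genes were lower.

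Long nuclear RNAs were lower in PFA lamina as well. MALAT1, NEAT1 and KCNQ1OT1 were all called lower than in the nuclear fraction, by edgeR, at -2.90, -3.03 and -2.88 (adjusted p = 0.0166, 0.0193 and 0.0401). With MEG3, which has 1 count, they summed to 13761 and 22811 normalised CPM in the nucleus, 970.0 and 1297 in the cytosol, 6343 and 13569 in native lamina, and 712 and 4106 in PFA lamina. PFA lamina replicate 1 was thus below both cytosolic libraries in this sum and replicate 2 above them. How far SNORD rows and these RNAs share the difference was not tested.

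In PFA lamina replicate 1 the rows under 100 bases summed to 89.3 normalised CPM and in replicate 2 to 295, while the rows of 100 bases or more summed to 450 and 251. Replicate 1 thus lay near the cytosolic libraries in its short rows (106 and 125) and replicate 2 near native lamina (282 and 354). SNORD17 was at 128 and 96.0 in PFA lamina, below the nuclear libraries and above both cytosolic and both native lamina libraries (-2.79 against nuclear, SE 0.39, adjusted p = 0.00479). SNORD97 shows the split, at 92.4 in replicate 1 and 12.1 in replicate 2. Replicate 1 had 5859026 counts in all and replicate 2 had 2321291, and the part of depth in their difference was not tested.

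Several short rows were nearly absent from PFA lamina. SNORD18B, in RPL4, had 1 count there and 51 in the nuclear libraries (ratio 33.9, counting interval 5.81 to 1363). SNORD11, in NOP58, had 1 and 46 (30.5, 5.21 to 1232), and SNORD70B, also in NOP58, had 3 and 66 (14.6, 4.78 to 72.6). SNORD73B had 0 and 30 counts, at least 2.99-fold lower, and SNORD111B 0 and 25, at least 2.46-fold lower, both named after their values were seen. GAS5 held 6 of the 37 called rows and SNHG1 5, and of the tested rows 13 of 25 in the 8 hosts named SNHG or GAS5 were called lower, 5 of 37 in ribosomal protein hosts and 19 of 61 in other hosts. Whether these groups differ was not tested. Of the 91 host rows themselves 14 were higher in PFA lamina than in the nucleus (9.63% of all genes were) and 5 lower (7.81% were), and of the 8 named SNHG or GAS5 2 were lower and the others did not pass.

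Against the cytosolic fraction 0 of 128 rows were called in PFA lamina in either direction by edgeR (0.527% of all genes were higher and 0.145% lower), with 12 at an unadjusted p under 0.05, a smallest adjusted p of 0.0581 and a median of 0.48. DESeq2 called 2 higher and 2 lower, where 551 and 449 of 16504 genes were. Without PFA lamina replicate 1 more rows, and more genes over all, were called in both directions and the median was 1.09. Without PFA lamina replicate 2 the median turned to -0.59. Between the PFA and native lamina preparations 0 rows passed by edgeR in either direction (0.0% of all genes did), with 18 at an unadjusted p under 0.05, a smallest adjusted p of 0.257 and a median of -0.74. DESeq2 called 2 higher, where 72 of 16504 genes were. Without PFA lamina replicate 2 rows were called in both directions, as were genes over all, and the median was -2.03. Without PFA lamina replicate 1 the median was -0.15. SNORD133 was at 92.2 and 64.4 normalised CPM in PFA lamina and 11.3 and 30.9 in native lamina without overlap, a difference of 1.91 that did not pass.

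Apart from SNORD141A and SNORD141B, SNORD86 and SNORD49B are the most abundant rows per kilobase that overlap an exon of their own host. SNORD86 lies in NOP56, the gene of a core box C/D protein whose splicing it is known to influence. It measured 14.3 and 13.7 normalised CPM in the nucleus, 11.4 and 10.6 in the cytosol, 19.5 and 23.7 in native lamina and 8.68 and 19.9 in PFA lamina, and none of its 6 differences passed. SNORD49B, in LRRC75A-AS1, measured 22.1 and 28.0, 9.36 and 11, 12.8 and 9.28, and 5.17 and 8.46 in the same order. It was higher in the nucleus than in the cytosol (1.30, SE 0.37, adjusted p = 0.0124) and lower in PFA lamina than in the nucleus (-1.91, SE 0.40, adjusted p = 0.0109), and each call was lost in 3 of the 4 fits without a library.

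Box H/ACA RNAs, which guide pseudouridylation and bear SNORA symbols, give a measure of what is shared with another class of nucleolar RNA. Of 107 tested SNORA rows 60 were higher in the nucleus than in the cytosol (26.1% of all genes were) and 2 lower (21.2% were), with a median of 1.69. Against nuclear, 13 were lower in native lamina (3.44% of all genes were) and 28 in PFA lamina (7.81% were), with medians of -1.22 and -1.48. Against cytosolic, native lamina had 3 higher (6.99% of all genes were) and 4 lower (6.77% were) with a median of 0.37. Nearly all SNORA rows are 100 bases or longer, and whether the classes differ was not tested.

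The tandem arrays gave almost no counts. Of 38 rows on 14q32 the sum was 5 counts over 8 libraries, 1 in SNORD113-9 and 4 in SNORD114-3, and of 83 rows on 15q11 it was 2, 1 each in SNORD115-35 and SNORD115-37. The 30 SNORD116 rows had none, where 3 counts are the floor. Their host transcripts were low as well, with 63 counts in all for SNHG14, 1 for MEG3 and 0 for MEG8. In the lamina domain lists of HCT116, a colorectal cancer line, 79 of the 83 rows on 15q11 (95.2%) lay within a domain in each of G1, S and G2. Of the 38 on 14q32, 0 did. The rows of an array are neighbours at 1 locus, so each share describes a locus and not independent placements. A row was placed by its first listed interval alone, and any overlap of that interval with a domain was counted. Over all rows these shares were 7.27%, 6.34% and 8.86%, and of the 174 described rows 1, 1 and 2 lay in one. SNORD129, in SFMBT2, lay within a domain in all 3 stages, and SNORD153 in G2 alone. SNORD129 measured 2.49 and 3.26 normalised CPM in the nucleus and 0.832 and 0.442 in native lamina. The domains were thus mapped in another line than the RNA, and their lists carry no replicate spread.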

How the data were processed

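Libraries were ribosomal RNA-depleted Illumina TruSeq libraries from Trizol RNA, per the labels' protocols. The authors deposited raw read counts per gene symbol, made with featureCounts 1.5.2 on hg19 RefFlat genes with strand ignored and with a read counted for every feature it overlapped, per the file headers. TopHat2 2.1.1 and Bowtie2 2.3.2 are named in the submitters' processing notes. The header of cytosolic replicate 1 names the output of nuclear replicate 1, though its input is cytosolic replicate 1. How reads with several places in the genome were treated is not given in the sources used here, so values of near-identical copies are uncertain. 8 described rows hold several intervals. Domain lists were deposited as intervals per stage by the authors.

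Counts were scaled by TMM and filtered by filterByExpr. All 8 libraries were fitted together with edgeR 4.0.16 under R 4.3.3, with 1 coefficient per group, and log2 fold changes carry the SE of that fit. Normalised CPM is CPM after TMM scaling. Total counts put the floor of 3 counts at 0.351 to 1.29 CPM per library. Total-count scaling moves the all-gene median by 0.28 (native lamina against nuclear), 0.29 (native lamina against cytosolic), 0.17 (PFA lamina against either fraction) and -0.11 (PFA against native lamina), and SNORD medians move with it. A host is the shortest other gene whose span on the same strand holds the row. The scripts were tested on simulated data. Alternatives were DESeq2 1.42.0, other scalings, no filter, a replicate block, only the libraries compared, non-overlapping rows and leaving out each library. A fit that leaves 1 library in a group assumes that it varies like the other groups.

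Members, lists and tests were chosen with earlier results of these data known. Named rows were U22, the 10 highest per kilobase, the 3 largest changes each way per comparison among called rows whose higher group had 20 counts or more in both libraries, and the 2 of most counts per tandem family. Others are said to be chosen after their values were seen, as were the GAS5 and SNHG1 groups. 1 host group is not reported here. K562 samples, whose labels conflict, were not used here. No RNA sequence was in the sources used here.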

Additional observations from a re-analysis of the deposited data

How the results depend on the processing

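Directions of the median held in every alternative except PFA lamina against cytosolic, which ran from -0.59 without PFA lamina replicate 2 to 1.09 without PFA lamina replicate 1. Leaving out a library gave 32 to 45 nuclear calls over cytosolic, 2 to 4 native lamina calls below nuclear, 0 to 7 above and 1 to 4 below cytosolic, and 1 to 91 PFA lamina calls below nuclear, 0 to 12 above and 0 to 4 below cytosolic, and 0 to 5 above and 0 to 14 below native lamina. Without the filter, calls were 19 below nuclear and 29 above cytosolic in native lamina, and in PFA lamina 3 above and 3 below cytosolic and 4 above and 2 below native lamina. Fitting only the 4 libraries gave 46 native lamina calls below nuclear, 29 above cytosolic and 7 PFA lamina calls below nuclear. Over all genes these were 2355 of 16097, 1832 of 14948 and 249 of 16205. Total counts gave 21 PFA lamina calls below nuclear, and DESeq2 gave 2 above and 2 below cytosolic and 2 above native lamina in PFA lamina. Over all 16504 genes these were 511, 551, 449 and 72. The cause of these shifts was not tested. Non-overlapping rows left 0 calls below cytosolic in the nucleus and 2 in native lamina. Without overlapping rows SNORD shares were 0.201%, 0.206%, 0.0511%, 0.0411%, 0.0546%, 0.0545%, 0.0498% and 0.0644% in the order nuclear, cytosolic, native lamina and PFA lamina. With LMNB1 out of the total, lamina shares were 0.0871%, 0.0825%, 0.0785% and 0.101%. Without the 8 rows of the U3 family each library's share stayed within its interval. These rows hold 16 counts, too few to move a share, and the listed U3 rows were not analysed, so nothing follows about U3.

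The labels do not say what a replicate number shares between groups, so the libraries were not treated as paired. Correlations of replicate deviations ran from -0.0674 to 0.321, over 0.1 in 3 of 6 pairs of groups. They do not settle whether libraries of the same number belong together. With the replicate number as a block the nuclear calls over cytosolic were 94, native lamina calls 12 below nuclear and 19 above and 5 below cytosolic, PFA lamina calls 43 below nuclear and 2 below cytosolic. Over all 16504 genes these were 4562, 885, 1514, 1496, 1674 and 125 in the same order. The shares of short rows without SNORD17 and without the 5 rows of most counts were chosen after seeing the data, and without SNORD17 they were 44.1% and 49.2% in the nuclear and 66.9% and 78.0% in the native lamina libraries. Depth left 46 of the 174 described rows below the filter and without a test.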
